A study of Equus caballus with 23 samples.

Results

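The genes described here encode parts of the calcineurin, NFAT and MEF2 signalling route, by which skeletal muscle fibres read calcium and set their fibre type programme. They were chosen by symbol: 9 symbols were listed, and 7 of them matched a gene in the count table through the symbol column of the authors' comparison tables. All 7 passed the filter on low counts, out of 11545 genes tested and 26991 in the table. PPP3R1, the regulatory B subunit of calcineurin, and HDAC4, a class IIa histone deacetylase that binds MEF2, had no identifier under those symbols and were not analysed here.

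Calcineurin is a phosphatase activated by calcium and calmodulin. As background, it removes phosphates from NFAT transcription factors, which then enter the nucleus, and sustained activity of the route is known to favour slow, oxidative fibres. MEF2 transcription factors bind promoters of muscle genes and are held back by class IIa histone deacetylases until calcium-dependent kinases send those deacetylases out of the nucleus. The values below are RNA levels and do not measure the activity of the enzyme or the location of the factors.

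The 23 RNA sequencing libraries came from needle biopsies of Arabian horses, taken from the gluteus medius, a propulsive muscle of the hindquarter. T0 comprised 5 libraries from untrained animals aged 2.5 years, of which 3 were male and 2 female. T1 comprised 8 libraries from animals aged 3 years that had completed intense gallop work but had not begun flat racing, of which 4 were male and 4 female. T2 comprised 10 libraries from animals aged 3 years sampled when the season of racing had ended, of which 7 were male and 3 female. Libraries carry the numbers m1 to m23, and nothing in the labels says whether an animal was sampled more than once or whether libraries within a time point came from separate animals. P-values therefore reflect only the variation among these libraries, which may in part be technical. The age of 2.5 years occurred only in T0, and age and training cannot be told apart in comparisons with T0. The comparisons of T1 with T0 and of T2 with T1 share the T1 libraries, so their values are given side by side and are not independent.

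Total counts ranged from 12185608 to 23641809 per library. Library m3 in T1 and library m12 in T0 stood apart from the rest of their groups, with TMM scaling factors of 0.66 and 0.749, and results are given without them where they matter. All 6 markers of skeletal muscle fibres (ACTA1, CKM, DES, TTN, NEB and MYBPC1) were present, with a summed level of 32674 to 101770 CPM (counts scaled to the library total) over the libraries. No pair of libraries held identical counts, and the correlation of log2 CPM between libraries of a time point was between 0.93 and 0.98 across genes. In a biopsy of mixed tissue, fewer cells of a type and less RNA per cell cannot be told apart.

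Most of the calls for these genes were between the gallop phase and the end of the season. From T1 to T2 both catalytic subunits of calcineurin, PPP3CA and PPP3CB, rose, while the transcription factors MEF2A and MEF2D fell. That is 4 of 7 genes past an adjusted p of 0.05 by edgeR's quasi-likelihood test, 2 in each direction. Of all tested genes 27.6% passed, 12.6% higher and 15.1% lower. From T0 to T1, 1 of 7 passed (PPP3CA, lower), against 6.91% of all genes, 3.57% higher and 3.34% lower. From T0 to T2, 1 of 7 passed (MEF2A, lower), against 16% of all genes, 6.73% higher and 9.3% lower. The median log2 fold change of the 7 genes was -0.08 for T1 against T0, 0.10 for T2 against T1 and -0.16 for T2 against T0. Over all genes tested the corresponding medians were -0.02, -0.01 and -0.03.

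**Figure D1:**
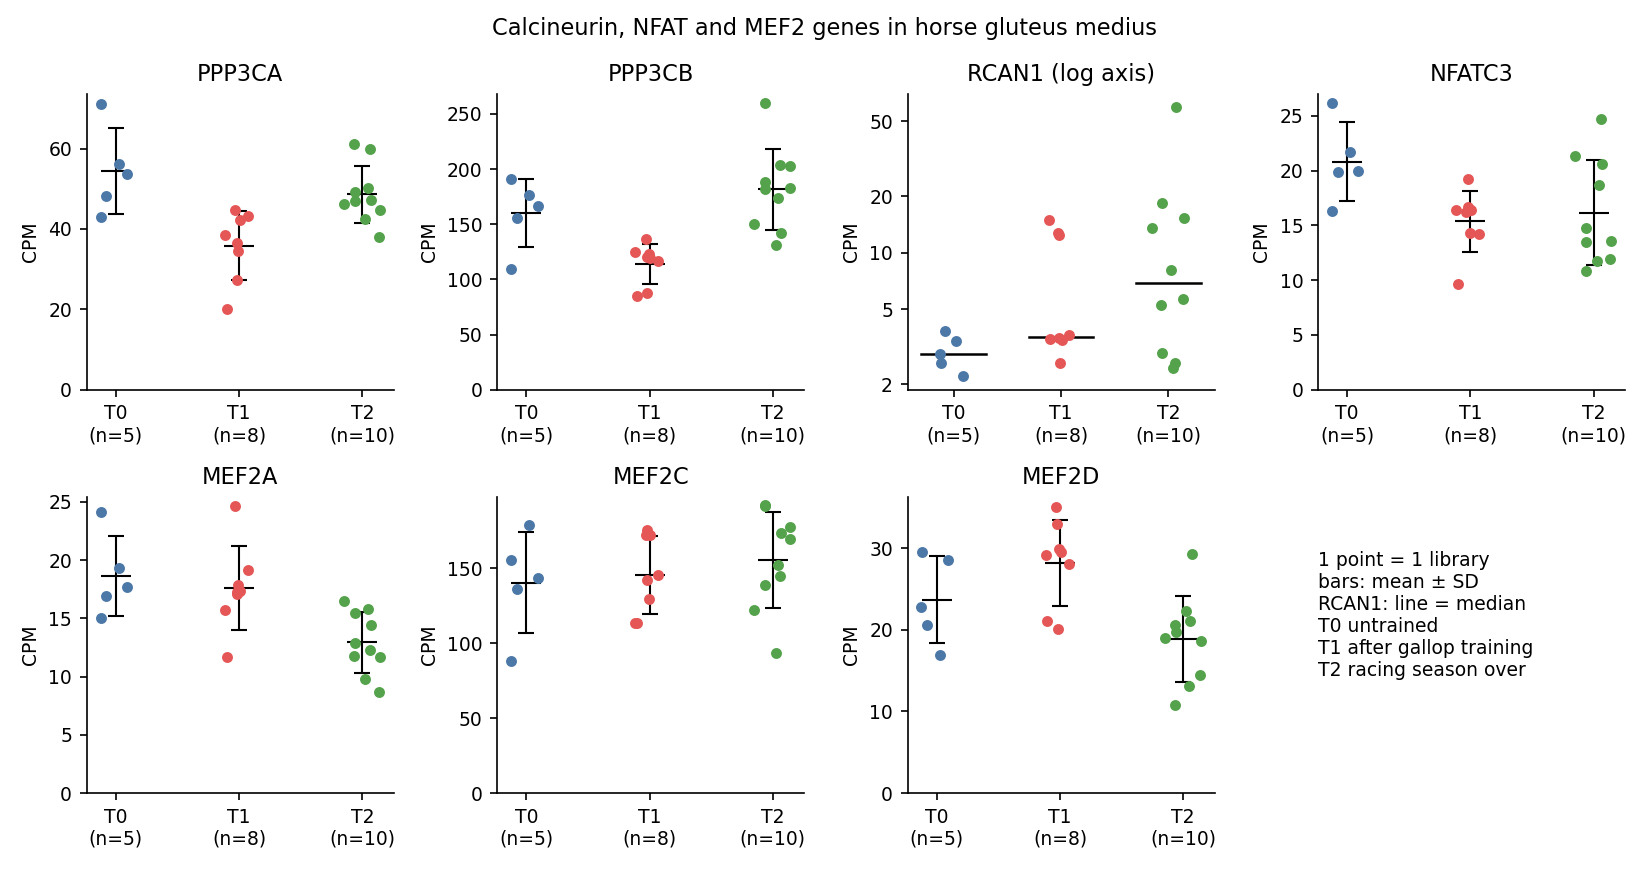
Level of each gene in CPM (y axis, linear except RCAN1, which has a log axis) in every library by time point (x axis). Points are libraries and bars are the mean ± SD, except for RCAN1, where the line is the median. PPP3CA and PPP3CB dip at T1, MEF2A and MEF2D are lowest at T2, MEF2C is nearly level, and RCAN1 spreads widely at T1 and T2.

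PPP3CA encodes the alpha isoform of the calcineurin catalytic subunit (ENSECAG00000010136, chromosome 3, 38531893 to 38677807 in the authors' tables; the sources used here do not give the genome build). In T0 its level was 42.9 CPM in m8, 48.3 in m9, 53.8 in m10, 56.2 in m12 and 71.1 in m13. In T1 the lowest library was m3 at 19.97 CPM, the median was 37.5 and the highest was m6 at 44.7. In T2 the lowest was 38.1 CPM, the median 47.0 and the highest 61.0. All 8 T1 libraries were below the T0 median and all 10 T2 libraries were above the T1 median, although the ranges of neighbouring time points overlapped at their edges. The mean was 54.5 CPM ± 10.6 in T0 (SD, n = 5), 35.9 ± 8.50 in T1 (n = 8) and 48.6 ± 7.15 in T2 (n = 10). The gene fell by 0.60 ± 0.16 (SE) on the log2 scale from T0 to T1, a 1.52-fold decrease (edgeR adjusted p = 0.0213). It rose by 0.44 ± 0.13 from T1 to T2, a 1.35-fold increase (edgeR adjusted p = 0.0167). T2 and T0 did not differ beyond the spread, with a log2 fold change of -0.16 ± 0.15 (edgeR adjusted p = 0.474).

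The fall at T1 was the less stable of the PPP3CA differences. Without T0 library m13 it was -0.48 (edgeR adjusted p = 0.0811), and without T0 library m10 it was -0.59 (edgeR adjusted p = 0.059). Without m3 and m12 it was -0.49 and still passed (edgeR adjusted p = 0.04). The rise from T1 to T2 passed in every alternative run, with log2 fold changes of 0.35 to 0.49.

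PPP3CB encodes the beta isoform of the catalytic subunit (ENSECAG00000008577, chromosome 1, 61234363 to 61267642). Its T0 values were 109.6 CPM in m8, 156 in m9, 167 in m10, 177 in m12 and 191 in m13. The T1 libraries ranged from 84.8 CPM in m3 to 137 in m6, with a median of 120.1, and the T2 libraries from 131 to 259.8 CPM in m17, with a median of 182. Of the 10 T2 libraries, 9 were above the highest T1 library. The mean was 159.9 CPM ± 31.0 in T0 (SD, n = 5), 114 ± 18.2 in T1 (n = 8) and 182 ± 36.9 in T2 (n = 10). PPP3CB rose by 0.67 ± 0.13 on the log2 scale from T1 to T2, a 1.59-fold increase (edgeR adjusted p = 0.000773). T1 against T0 gave -0.48 ± 0.16 and did not pass (edgeR adjusted p = 0.0596), with all 8 T1 libraries below the T0 median. It did pass without T1 library m6 (-0.53, edgeR adjusted p = 0.0485), without T0 library m8 (-0.58, edgeR adjusted p = 0.027) and without T2 library m17 (-0.48, edgeR adjusted p = 0.0413). T2 against T0 gave 0.18 ± 0.15 (edgeR adjusted p = 0.422).

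RCAN1 encodes regulator of calcineurin 1, a protein that binds and restrains the phosphatase, and its transcription is itself known to respond to calcineurin (ENSECAG00000014787, chromosome 26, 31014839 to 31022692). In T0 all libraries were low, at 2.21 CPM in m10, 2.59 in m13, 2.91 in m8, 3.39 in m12 and 3.85 in m9. In T1, 5 libraries lay between 2.58 and 3.64 CPM, while m11, m6 and m5 reached 12.5, 12.8 and 14.9 CPM. In T2 the lowest library was 2.45 CPM, the median 6.90 and the highest, m15, 59.5 CPM, with m20 next at 18.4. RCAN1 was therefore raised in some libraries of T1 and T2 and at the T0 level in others. Its mean was 2.99 CPM ± 0.647 in T0 (SD, n = 5), 7.11 ± 5.26 in T1 (n = 8) and 13.4 ± 17.2 in T2 (n = 10).

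No RCAN1 difference passed. T2 against T0 gave 2.17 ± 0.75 on the log2 scale (edgeR adjusted p = 0.0513), T2 against T1 gave 0.91 ± 0.58 (edgeR adjusted p = 0.248) and T1 against T0 gave 1.26 ± 0.75 (edgeR adjusted p = 0.346). Without library m15 the T2 against T1 value was 0.21 (edgeR adjusted p = 0.764) and the T2 against T0 value 1.47 (edgeR adjusted p = 0.0721). T2 against T0 passed with DESeq2 (2.18, adjusted p = 0.00921) and in edgeR without T1 library m3 (adjusted p = 0.0485) or without T2 library m18, m19 or m23 (adjusted p = 0.0409, 0.0371 and 0.0394).

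The genes whose levels moved most like RCAN1 over the 23 libraries, after each time point mean was subtracted, were VGLL2 (r = 0.81), ABRA (r = 0.80) and CTGF (r = 0.77). Within T0 alone r was 0.52, -0.02 and 0.47. These were looked up after the RCAN1 values were seen and are a description, since all points share the library and its depth. ABRA, an activator of actin-dependent transcription in striated muscle, stood at 563 CPM in m15 against a T2 median of 160.1, and at 779 CPM in m6 against a T1 median of 70.0. VGLL2, a cofactor of TEAD transcription factors in muscle, stood at 91.6 CPM in m15 and at 73.0 in m6, each the highest of its time point. NR4A1, an immediate early nuclear receptor and a MEF2 target, was also highest in m6 within T1, at 78.6 CPM, followed by m11 at 43.3. Within T2 its highest library was m14 at 210.3 CPM, followed by m15 at 96.8. In T0, NR4A1 was highest in m10 and m13, at 77.8 and 75.3 CPM, where RCAN1 was lowest (2.21 and 2.59 CPM). RCAN1 itself was highest of T1 in m5, at 14.9 CPM.

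NFATC3 encodes a calcineurin-dependent NFAT factor (ENSECAG00000014089, chromosome 3, 18409635 to 18499860). Its T0 libraries lay between 16.3 CPM in m8 and 26.2 in m13, with m9, m10 and m12 at 19.9, 19.9 and 21.7. The T1 libraries ranged from 9.64 to 19.2 CPM with a median of 16.3, and the T2 libraries from 10.8 to 24.7 CPM with a median of 14.2. All 8 T1 libraries were below the T0 median, and so were 7 of 10 T2 libraries. No comparison passed: the log2 fold change was -0.43 ± 0.18 for T1 against T0 (edgeR adjusted p = 0.156), 0.07 ± 0.15 for T2 against T1 (edgeR adjusted p = 0.753) and -0.36 ± 0.18 for T2 against T0 (edgeR adjusted p = 0.157).

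MEF2A encodes a MADS-box factor of the MEF2 family (ENSECAG00000011593, chromosome 1, 105006651 to 105139735). In T0 it stood at 15.03 CPM in m8, 16.96 in m9, 17.7 in m10, 19.3 in m12 and 24.1 in m13. T1 ranged from 11.7 CPM in m3 to 24.6 in m6 with a median of 17.3, and T2 from 8.72 to 16.5 CPM with a median of 12.6. All 10 T2 libraries were below the T1 median and below the T0 median, and 7 were below the lowest T0 library. The mean was 18.6 CPM ± 3.44 in T0 (SD, n = 5), 17.6 ± 3.61 in T1 (n = 8) and 12.9 ± 2.59 in T2 (n = 10). MEF2A fell by 0.44 ± 0.13 on the log2 scale from T1 to T2, a 1.36-fold decrease (edgeR adjusted p = 0.0147). It fell by 0.52 ± 0.15 from T0 to T2, a 1.43-fold decrease (edgeR adjusted p = 0.0222). The latter did not pass without T0 library m13 (-0.41, edgeR adjusted p = 0.0971). T1 and T0 differed by -0.08 ± 0.16 (edgeR adjusted p = 0.831).

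MEF2D encodes a second member of the family that fell at the end of the season (ENSECAG00000020356, chromosome 5, 41751778 to 41781344). Its T0 values were 16.96 CPM in m12, 20.6 in m9, 22.8 in m8, 28.5 in m10 and 29.6 in m13. T1 ranged from 20.04 CPM in m1 to 35.0 in m6 with a median of 29.3, and T2 from 10.8 CPM in m17 to 29.3 in m15 with a median of 19.4. All 10 T2 libraries were below the T1 median and 6 were below the lowest T1 library. The mean was 23.7 CPM ± 5.33 in T0 (SD, n = 5), 28.2 ± 5.25 in T1 (n = 8) and 18.9 ± 5.24 in T2 (n = 10). MEF2D fell by 0.58 ± 0.16 on the log2 scale from T1 to T2, a 1.49-fold decrease (edgeR adjusted p = 0.00767). The other differences did not pass, at 0.25 ± 0.19 for T1 against T0 (edgeR adjusted p = 0.487) and -0.33 ± 0.18 for T2 against T0 (edgeR adjusted p = 0.208).

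MEF2C, the other MEF2 gene analysed here, showed no difference past the threshold (ENSECAG00000024716, chromosome 14, 78652218 to 78794320). The T0 libraries lay between 88.3 and 179 CPM, the T1 libraries between 114 and 176 and the T2 libraries between 93.3 and 192. The log2 fold changes were 0.05 ± 0.17 for T1 against T0, 0.10 ± 0.14 for T2 against T1 and 0.15 ± 0.17 for T2 against T0 (edgeR adjusted p = 0.906, 0.65 and 0.568). The MEF2 genes thus gave different results between T1 and T2, with MEF2A and MEF2D past the threshold and MEF2C not, and the difference between the genes was not tested.

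**Figure D2:**
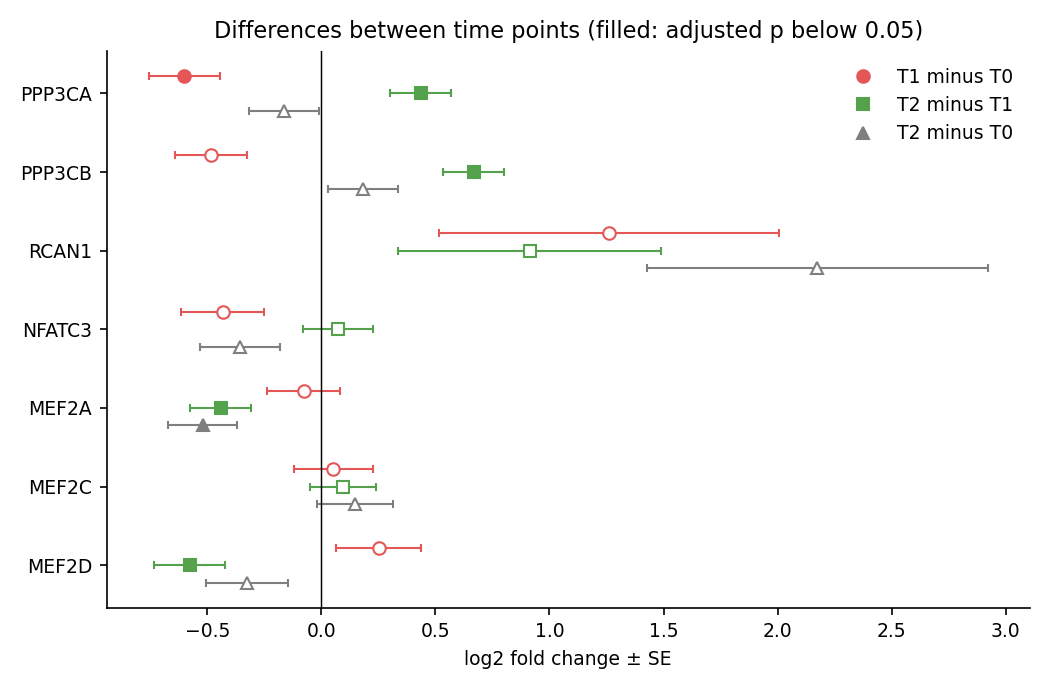
Log2 fold change (x axis) of each gene (y axis) in the 3 comparisons of time points, with bars of ± SE and filled symbols for an edgeR adjusted p below 0.05. For T2 against T1, PPP3CA and PPP3CB lie at 0.44 and 0.67 and MEF2A and MEF2D at -0.44 and -0.58, while RCAN1 has the widest bars and no filled symbol.

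By level, PPP3CA ran from T1 to T2 to T0 in ascending order, and only T2 and T0 were neighbours that did not differ past the threshold. PPP3CB ran from T1 to T0 to T2, and neither neighbouring pair differed past the threshold, only T1 and T2. MEF2A ran from T2 to T1 to T0 with T1 and T0 not distinguished, and MEF2D from T2 to T0 to T1 with only T2 and T1 distinguished. Library m3 was the lowest of T1 for PPP3CA, PPP3CB, NFATC3, MEF2A and MEF2C. Without m3 and m12, the 4 genes that passed between T1 and T2 still passed, with log2 fold changes of 0.35 for PPP3CA, 0.61 for PPP3CB, -0.51 for MEF2A and -0.63 for MEF2D.

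Within time points the genes varied together only in part. Over the 23 libraries with time point means subtracted, PPP3CA correlated with PPP3CB at r = 0.72, with MEF2A at 0.66 and with MEF2D at 0.15. NFATC3 correlated with MEF2A at r = 0.66, and PPP3CB with MEF2C at 0.67 and with MEF2D at -0.27. These correlations are descriptions over libraries that share their depth and scaling.

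Among the genes most like PPP3CA by that measure, out of 6400 candidates, were SOX6 (r = 0.87) and ZNF462 (r = 0.87). SOX6 encodes a repressor of slow fibre genes. Among those most like PPP3CB were MEMO1 (r = 0.87) and ZBTB18 (r = 0.86). MEF2A was most like ARHGAP20 (r = 0.89), RPRD1A (r = 0.87) and PDE4D (r = 0.85), the last encoding a cyclic AMP phosphodiesterase. MEF2D was most like CRY2 (r = 0.91), a circadian clock repressor, POLR2A (r = 0.89), the largest subunit of RNA polymerase II, and FURIN (r = 0.88), a proprotein convertase.

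Fibre type genes moved with the same comparisons. A fibre score was taken as the mean log2 CPM of 7 slow contractile genes (MYH7, MYL2, MYL3, TNNC1, TNNI1, TNNT1 and TPM3) minus that of 7 fast ones (MYL1, MYLPF, TNNC2, TNNI2, TNNT3, ACTN3 and MYBPC2). Its range was -3.29 to -1.16 for T0, -0.04 to 6.59 for T1 and -2.73 to -0.32 for T2, with m3 and m11 the highest of T1 at 6.59 and 2.65. All 7 slow genes rose from T0 to T1 and all 7 fell from T1 to T2. Of the fast genes, 2 fell from T0 to T1 (4 without m3, 0 without T0 library m13) and 7 rose from T1 to T2. Of all genes, 3.57% were higher and 3.34% lower from T0 to T1, and 12.6% higher and 15.1% lower from T1 to T2. From T0 to T2, 0 slow and 0 fast genes passed, against 16% of all genes. The part of fibre composition in the differences of PPP3CA, PPP3CB, MEF2A and MEF2D was not tested.

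Within T1, libraries with a higher fibre score had less PPP3CA. Pearson's r was -0.96 (n = 8, exact permutation p = 0.000794, adjusted over 14 relations p = 0.0111) and Spearman's rho was -0.93 (exact permutation p = 0.00223, adjusted p = 0.0313). Without m3 and m11, the libraries farthest from the median score, r was -0.74 (n = 6, exact permutation p = 0.0708), so passing the test rests on those libraries. PPP3CB gave r = -0.87 in T1 (n = 8, exact permutation p = 0.00608, adjusted p = 0.0425) but rho = -0.57 (exact permutation p = 0.151, adjusted p = 0.705). Its r was -0.25 without m3 and m11 (exact permutation p = 0.597), so this relation rests on those libraries. The other 5 genes did not pass in T1. In T2 none of the 7 passed. There r was -0.41 for PPP3CA (n = 10, permutation p = 0.239, adjusted p = 0.479) and -0.29 for PPP3CB (n = 10, permutation p = 0.415, adjusted p = 0.645). The difference between T1 and T2 was not tested, and no correlation was computed in T0, which had 5 libraries.

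**Figure D3:**
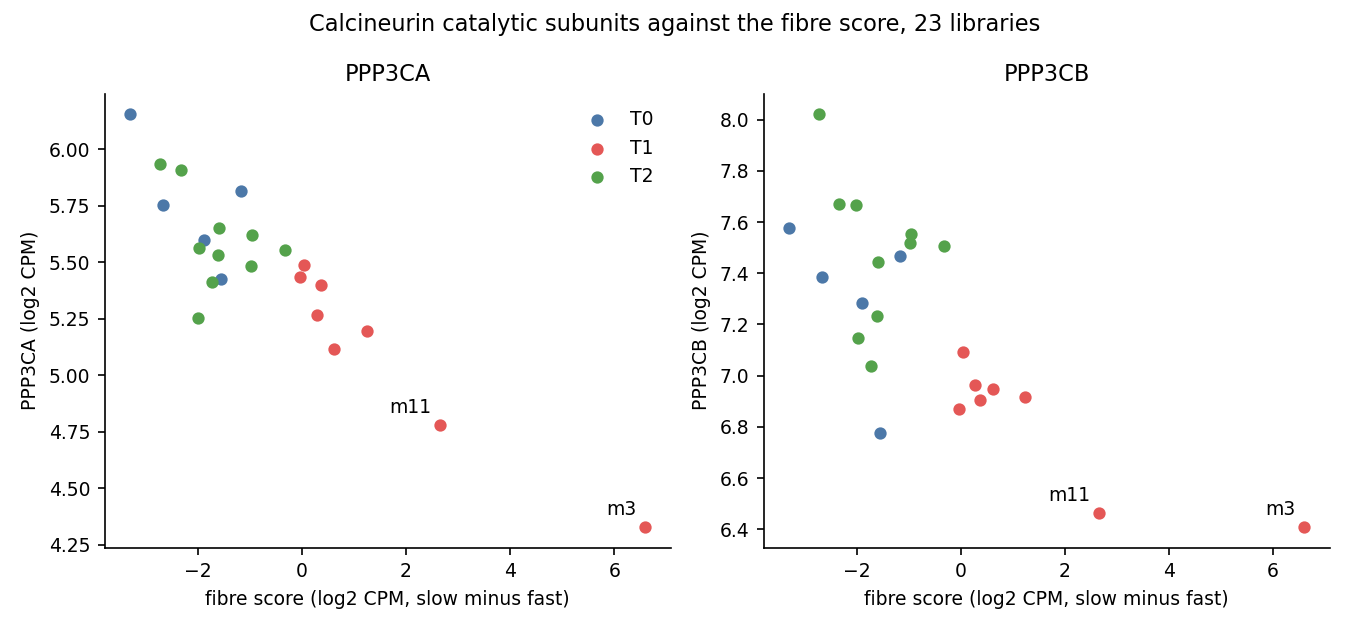
Log2 CPM of PPP3CA (left) and PPP3CB (right) on the y axis against the fibre score on the x axis, 1 point per library, coloured by time point. The T1 libraries m3 and m11 lie at the high end of the score (6.59 and 2.65) and at the low end of both genes.

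Among the partners of calcineurin, 18 symbols were listed and 12 were tested. From T0 to T1, 3 rose and 0 fell. From T1 to T2, 1 rose and 6 fell, and from T0 to T2, 0 rose and 2 fell. Over all genes, 6.91%, 27.6% and 16% passed in these comparisons, so the last count is near the share over all genes. With T0 library m10 removed the count of 3 became 1, and the count of 2 was 1 in most alternatives. The median log2 fold change of the list was 0.03, -0.16 and 0.20 in T1 against T0, T2 against T1 and T2 against T0.

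RCAN2, a second regulator of calcineurin, rose and fell with the gallop phase. Its mean was 5.00 CPM ± 1.75 in T0 (SD, n = 5), 17.1 ± 7.20 in T1 (n = 8) and 6.61 ± 2.35 in T2 (n = 10), and its lowest T1 library, at 8.36 CPM, was above the highest T0 library at 7.58. RCAN2 rose by 1.77 ± 0.31 on the log2 scale from T0 to T1 (3.42-fold, edgeR adjusted p = 0.00225) and fell by 1.37 ± 0.24 from T1 to T2 (2.59-fold, edgeR adjusted p = 0.000294). For comparison, 3 of 8 T1 libraries and 7 of 10 T2 libraries exceeded the highest T0 library in RCAN1. The difference between RCAN1 and RCAN2 was not tested.

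AKAP6, a scaffold that holds calcineurin and protein kinase A at muscle membranes, was lowest in T2. Its mean was 49.6 CPM ± 8.68 in T0, 64.0 ± 7.91 in T1 and 32.5 ± 6.35 in T2, and no T2 library (highest 41.0 CPM) reached the lowest T1 library (53.1 CPM). T1 and T0 did not differ past the threshold (0.36 on the log2 scale, edgeR adjusted p = 0.124). AKAP6 fell by 0.98 ± 0.12 from T1 to T2 (1.97-fold, edgeR adjusted p = 7.39e-06) and by 0.61 ± 0.13 from T0 to T2 (edgeR adjusted p = 0.00583).

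MYOZ2, a Z-disc protein of slow fibres that binds calcineurin, was at 17.7 CPM ± 11.04 in T0, 198 ± 311 in T1 and 22.5 ± 10.3 in T2. The T1 spread came with library m3 at 938 CPM, against a T1 median of 62.0. MYOZ2 rose by 3.49 ± 0.85 from T0 to T1 (edgeR adjusted p = 0.0177) and by 2.40 without m3 (edgeR adjusted p = 0.0227). Without m10 the value was 3.52 and did not pass (edgeR adjusted p = 0.0505). The call was also lost with only T0 and T1 in the fit (3.49, edgeR adjusted p = 0.0834). MYOZ3, its fast fibre relative, fell by 0.36 ± 0.12 from T0 to T2 (edgeR adjusted p = 0.0493), a call kept in 9 of 31 alternatives. MYOZ3 also fell by 0.33 ± 0.11 from T1 to T2 (edgeR adjusted p = 0.0256). PPP3CC, the gene of the gamma catalytic isoform, did not pass, with 0.26 ± 0.12 for T2 against T1 (edgeR adjusted p = 0.0974).

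**Figure D4:**
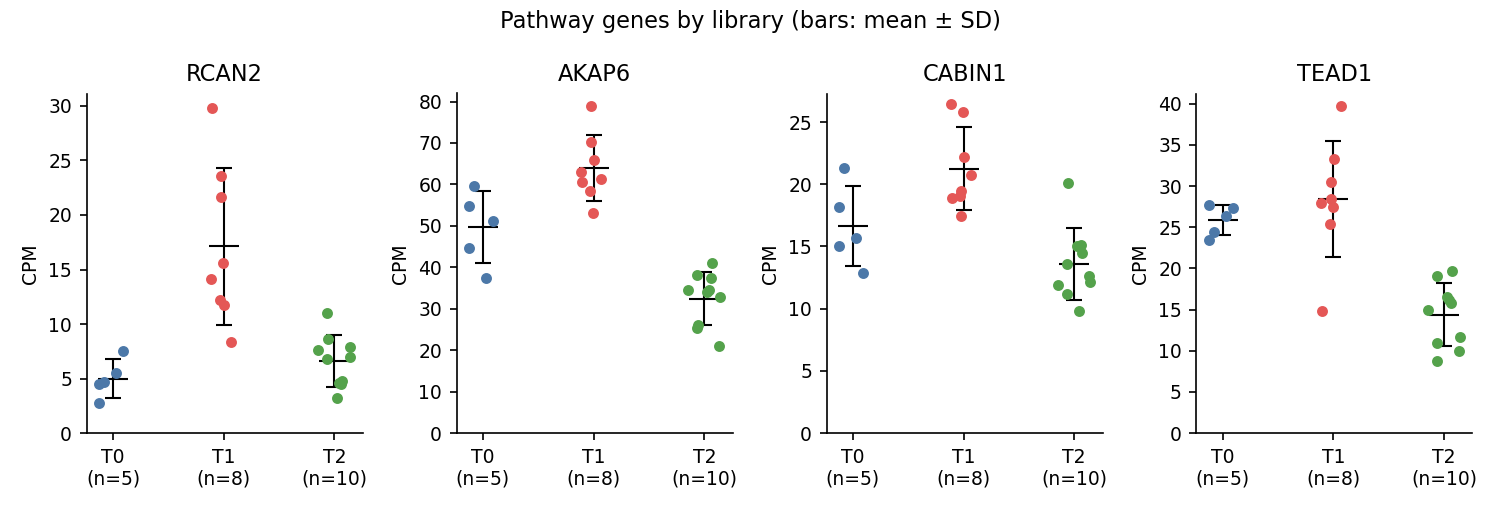
Level in CPM (y axis) of 3 calcineurin partners (RCAN2, AKAP6 and CABIN1) and of TEAD1 in every library by time point (x axis), with bars of the mean ± SD. RCAN2 peaks at T1 (17.1 CPM), and AKAP6 and TEAD1 are lowest at T2 (32.5 and 14.4 CPM).

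Of 7 further NFAT genes and partners listed, 5 were tested (NFATC1, NFATC4, NFATC2IP, HOMER1 and HOMER2), and 0 passed in any comparison of time points with edgeR or with DESeq2. By edgeR, 6.91% of all genes passed from T0 to T1, 27.6% from T1 to T2 and 16% from T0 to T2. With 5 genes, a count of 0 is no result about the list. In the comparisons of time points, at an unadjusted p under 0.05 by edgeR there was 1, HOMER1 in T2 against T0 (-0.36 ± 0.17). Of all genes, 32.1% were under 0.05 in T2 against T0. NFATC1, known for its part in slow fibre genes, was at 12.4 CPM ± 6.26 in T0, 11.7 ± 2.65 in T1 and 9.46 ± 3.59 in T2.

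Of 30 listed repressors, kinases and partners of MEF2, 25 were tested. None rose and 1 fell from T0 to T1, 3 rose and 6 fell from T1 to T2, and 0 rose and 5 fell from T0 to T2. Beside the 6.91%, 27.6% and 16% of all genes that passed, these counts are no result about the list as a whole. SIK2, a kinase that phosphorylates class IIa deacetylases, fell from 4.66 CPM ± 1.55 in T1 to 2.15 ± 0.711 in T2, by 1.11 ± 0.19 on the log2 scale (edgeR adjusted p = 0.000227). It also fell by 0.80 ± 0.22 from T0 to T2 (edgeR adjusted p = 0.0176), which did not pass without T0 library m10 (edgeR adjusted p = 0.0623). CAMK2B, a calcium/calmodulin-dependent kinase, fell by 0.57 ± 0.14 from T1 to T2 (edgeR adjusted p = 0.00357). MAPK14, the p38 alpha kinase, fell by 0.34 ± 0.11 from T0 to T2 (edgeR adjusted p = 0.0299), a call kept in 25 of 31 alternatives. MAPK14 also fell by 0.33 ± 0.09 from T1 to T2 (edgeR adjusted p = 0.00874).

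YWHAE, a 14-3-3 protein that binds phosphorylated deacetylases, rose from 139.6 CPM ± 10.3 in T1 to 194 ± 30.5 in T2, by 0.47 ± 0.10 (edgeR adjusted p = 0.00144). CAMK1 rose by 0.73 ± 0.24 (edgeR adjusted p = 0.0235) from a low level of 1.89 CPM ± 0.577, and lost its call without T1 library m7 or T2 library m16 or m17. CAMK2G was the gene that fell from T0 to T1, by 0.48 ± 0.15 (edgeR adjusted p = 0.0476), a call kept in 12 of 31 alternatives. HDAC5, a class IIa deacetylase like HDAC4, did not pass, at 36.8 CPM ± 9.05 in T0, 46.3 ± 24.5 in T1 and 40.8 ± 24.8 in T2. HDAC7 did not pass either, with -0.41 ± 0.17 for T2 against T0 (edgeR adjusted p = 0.0854).

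Of 14 transcription factors and cofactors tied to fibre type, 13 were tested, with 1 higher and 1 lower from T0 to T1, 4 lower from T1 to T2 and 1 lower from T0 to T2. The share of all genes that passed was 6.91%, 27.6% and 16%, and the counts do not set this list apart. The 2 calls from T0 to T1 were 0 without T0 library m9 or m10, and the single call from T0 to T2 became 3 without T1 library m3 or T2 library m14. TEAD1, which binds muscle promoters alongside MEF2, was at 25.9 CPM ± 1.83 in T0, 28.4 ± 7.08 in T1 and 14.4 ± 3.81 in T2. It fell by 0.98 ± 0.16 from T1 to T2 (edgeR adjusted p = 9.47e-05) and by 0.84 ± 0.18 from T0 to T2 (edgeR adjusted p = 0.00501). PPARGC1B, a coactivator of oxidative metabolism, fell by 0.88 ± 0.25 from T1 to T2 (edgeR adjusted p = 0.0102). SOX6 fell by 0.82 ± 0.24 from T0 to T1 (edgeR adjusted p = 0.0417), a call kept in 21 of 31 alternatives. ESRRA, an estrogen-related receptor of mitochondrial genes, rose by 0.45 ± 0.12 from T0 to T1 (edgeR adjusted p = 0.0233), and lost its call without T0 library m9 or m10.

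Of 9 textbook targets of calcineurin or MEF2, all tested, 4 rose from T0 to T1 and 4 fell from T1 to T2: MYH7, TNNI1, TNNC1 and ATP2A2. Over all genes, 3.57% were higher from T0 to T1 and 15.1% lower from T1 to T2. From T0 to T2, 0 of the 9 passed, against 16% of all genes. MYH7, TNNI1 and TNNC1 are also in the slow contractile list. TNNI1, the slow troponin I, rose by 2.18 ± 0.44 and then fell by 1.77 ± 0.34 (edgeR adjusted p = 0.00462 and 0.000602). ATP2A2, the slow fibre calcium pump, fell by 1.46 ± 0.26 from T1 to T2 (edgeR adjusted p = 0.000293). These 4 targets were high at T1. The other 5 did not pass in any comparison of time points. Of those, MB, SLC2A4 and CKM had their highest mean at T1, and MYOM2 and NR4A1 their lowest (502 and 29.3 CPM). The relation of the targets to PPP3CA and PPP3CB was not tested.

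At the level of transcripts, PPP3CA, PPP3CB, RCAN1, NFATC3 and MEF2C each had 1 annotated transcript, and MEF2A and MEF2D had 3 each, of which MEF2A-201 and MEF2D-203 were named in the authors' tables and tested. For the genes with 1 transcript the transcript test gave the calls of the gene test. MEF2A-201 fell by 0.62 ± 0.16 on the log2 scale from T1 to T2 (edgeR adjusted p = 0.00621 over transcripts, of which 23.9% passed in either direction and 12.7% were lower). MEF2D-203 did not pass in that comparison, at -0.23 ± 0.24 (edgeR adjusted p = 0.519), although the gene's total fell by 0.58. The division of short reads between overlapping transcripts is an estimate by the authors' software.

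The share of MEF2D counts assigned to MEF2D-203 was higher in T2 than in T0. In T0 it was 59.4% in m12, 60.0% in m9, 68.6% in m10, 78.1% in m8 and 84.4% in m13. In T1 it ranged from 30.8% to 97.1% with a median of 77.7%, and in T2 from 74.3% to 100% with a median of 85.8%. Libraries m17, m19, m20 and m22 of T2 stood at 100%, the upper limit of a share. Their MEF2D counts were 135, 373, 344 and 202, all assigned to MEF2D-203. The T2 libraries lay at the upper end and overlapped with both other time points. T2 exceeded T0 by 19.4 percentage points (exact permutation p = 0.00599, adjusted over 6 tests p = 0.036) and T1 by 19.6 points (exact permutation p = 0.0294, adjusted p = 0.0883). The T2 against T0 difference did not pass without T0 library m9, m10 or m12 or T2 library m17, m19, m20, m21 or m22, with adjusted p from 0.0509 to 0.0883. The T2 against T1 difference passed without T1 library m4 or m5 (adjusted p = 0.0253 and 0.0389). The share of MEF2A-201 in MEF2A was 52.7% ± 8.51 in T0 (SD, n = 5), 63.6% ± 8.94 in T1 (n = 8) and 58.1% ± 21.6 in T2 (n = 10), and no comparison passed, except that T1 against T0 did without T1 library m6 (13.01 points, exact permutation adjusted p = 0.0227).

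**Figure D5:**
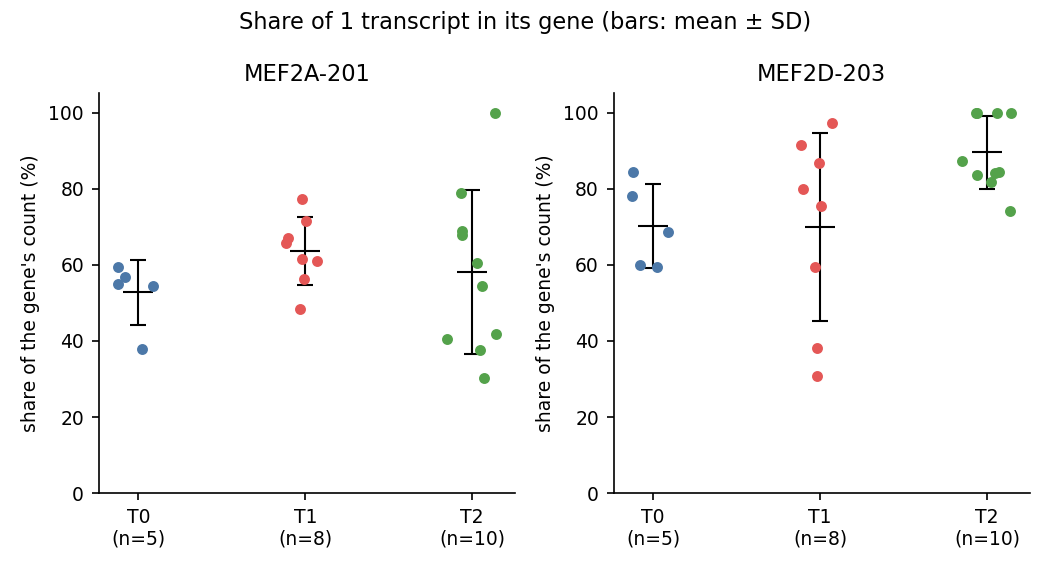
Share of the gene's count (y axis, percent) assigned to MEF2A-201 (left) and MEF2D-203 (right) in every library by time point (x axis), with bars of the mean ± SD. MEF2D-203 runs from 74.3% to 100% in T2 and spreads from 30.8% to 97.1% in T1.

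Neither sex nor its interaction with time gave a call for these genes. With time point in the model, 0 of 7 genes passed between males and females by edgeR or DESeq2, and 0% of all genes passed by edgeR. At an unadjusted p under 0.05 there were 2, MEF2A (male minus female -0.28 ± 0.11, p = 0.0173, edgeR adjusted p = 0.776) and MEF2D (-0.29 ± 0.13, p = 0.0422, edgeR adjusted p = 0.797). Of all genes, 6.23% were under 0.05 by edgeR. MEF2D averaged 29.0 CPM in the 2 females and 20.1 CPM in the 3 males of T0, 31.5 and 24.9 CPM in the 4 females and 4 males of T1, and 19.7 and 18.6 CPM in the 3 females and 7 males of T2. All 7 genes had a negative estimate, and PPP3CB turned positive without T2 library m17. For the interaction of sex with T2 against T1, 0 of 7 passed by edgeR or DESeq2, and 0% of all genes passed. At an unadjusted p under 0.05 there were 0 of 7, and 1.55% of all genes.

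Markers of other cell types were examined in the comparisons of time points. Of all genes, 6.91% passed from T0 to T1, 27.6% from T1 to T2 and 16% from T0 to T2. Of the endothelial markers, 6 of 7 were tested and 0 passed in any comparison, with summed levels of 192 to 289.6 CPM in T0, 158 to 240.0 in T1 and 138 to 229 in T2. Of the fibroblast markers, 5 of 6 were tested and 2 fell from T0 to T1, with summed levels of 88.1 to 377 CPM in T0 and 62.2 to 169 in T1. That is a larger share than the 3.34% of all genes that were lower. Of the smooth muscle and pericyte markers, all 6 were tested, 1 fell from T1 to T2 and 3 fell from T0 to T2. Of all genes, 15.1% were lower from T1 to T2 and 9.3% from T0 to T2, a smaller share than 3 of 6. Of the satellite cell, adipocyte and macrophage markers, 2 each were tested, and 1 macrophage marker fell from T1 to T2. The lymphocyte, neutrophil, erythroid and Schwann cell markers had no symbol match and were not analysed here. The part of these cells in the results was not tested.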

How the data were processed

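RNA sequencing of 23 muscle libraries was analysed from gene and transcript tables of expected counts, which the authors deposited as whole numbers estimated with RSEM. The submitters' processing notes name FastQC, STAR, RSEM and DESeq2. Their versions, the genome build and the pooling of technical repetitions are not given in the sources used here. Symbols and coordinates came from the authors' comparison tables (9628 identifiers, 8842 with a symbol), whose group letters the labels do not explain, so their fold changes were not used.

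Genes were kept by filterByExpr (minimum count 10, minimum total 15), scaled by TMM and fitted in 1 robust quasi-likelihood model of T0, T1 and T2 with edgeR 4.0.16 in R 4.3.3. Benjamini-Hochberg adjustment of p-values ran over all 11545 genes or 12334 transcripts, with a threshold of 0.05. The SE of a log2 fold change is its size divided by the square root of F. CPM used TMM-scaled totals, and log2 CPM a prior count of 2. Correlations and transcript shares used two-sided permutation tests. The fits were tested on simulated data. Alternatives were DESeq2 1.42.0 and its size factors, no filter, sex as a covariate, limma 3.58.1 voom with sample weights, a non-robust fit, only the 2 time points compared, and leaving out each library. The members and gene lists were chosen with earlier results of these data known. Named are all members, up to 2 called genes with the smallest p per list, direction and comparison, the 3 most similar genes of each called member, and further genes whose values were seen first (PPP3CC, NFATC1, HDAC5, HDAC7, HOMER1, NR4A1, and the genes most like RCAN1). Some genes that this rule names are not reported here. Figures used matplotlib.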

Additional observations from a re-analysis of the deposited data

Results flagged for a closer look

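RCAN1 in T2 library m15 stood at 59.5 CPM, far above the other 9 libraries of T2, of which the next was 18.4 CPM. Its gap to the next library was 0.72 of the whole range, above the 0.466 allowed for 10 samples. MEF2A-201 made up 37.9% of the MEF2A count in T0 library m12, far below the other T0 libraries, of which the next was 54.5%, and the gap was 0.77 of the range, above the 0.71 allowed for 5 samples. Of 27 groups of values examined, 2 held such a library, and chance alone gives about 1 in 20.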

How the results depend on the processing

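The 4 genes called between T1 and T2 numbered 4 in all 31 alternatives, and the counts of 0 for sex and its interaction and of 1 transcript (of MEF2A-201 and MEF2D-203) between T1 and T2 held in all 26 of theirs. The count of 1 between T0 and T1 was 2 with DESeq2 and with voom (PPP3CB added), 0 with only those time points in the fit (PPP3CA lost) and 0 to 2 with 1 library left out. The count of 1 between T0 and T2 was 2 with DESeq2 and in the fit that was not robust (RCAN1 added) and 0 to 2 with 1 library left out. The count of 2 genes related to the fibre score was 1 with MYH7 alone, 1 by Spearman's rho and 0 without the farthest libraries. The cause of these changes was not tested.

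Signs turned only for values that had not passed. MEF2A in T1 against T0 was 0.0059 with voom, 0.013 without m3 and m12, and -0.16 to 0.036 with 1 library left out. With 1 library left out, MEF2C in T1 against T0 ranged from -0.068 to 0.16, NFATC3 in T2 against T1 from -0.014 to 0.13 and PPP3CB between the sexes from -0.15 to 0.0034. MEF2D-203 in T2 against T0 was 0.012 with no filter, 0.0012 with DESeq2 and -0.14 to 0.17 with 1 library left out, and its share in T1 against T0 was -4.12 to 5.36 points. Correlations with the score turned in T1 for NFATC3 (0.167 by rho, 0.662 without the farthest libraries) and MEF2C (0.222 without them). In T2 they turned for PPP3CA (0.000176 with MYH7), PPP3CB (0.283 with MYH7, 0.0174 without the farthest libraries), RCAN1 (-0.216 with MYH7), NFATC3 (0.0788 by rho), MEF2C (-0.0788 by rho, -0.0298 without the farthest libraries) and MEF2D (-0.121 without them). Removing m3 and m12 together and the transcript shares were chosen after seeing the data. No paired analysis was possible because no replicate number is shared between time points. With leave-one-out, the list of calcineurin partners held 5 to 8 calls between T1 and T2, that of MEF2 repressors, kinases and partners 6 to 11, and that of fibre type factors 3 to 5. Between T0 and T2 the MEF2 list held 1 to 6 and the calcineurin partners 1 to 2, or 4 without m3 and m12. Fast genes called between T1 and T2 were 4 of 7 with no filter, and fibre type factors between T0 and T2 were 5 with voom. The spread between libraries limits the precision for RCAN1 (SD 17.2 CPM in T2).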
